A study of Danio rerio with 19 samples.

Results

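H3K9me3, histone H3 trimethylated on lysine 9, was compared at ZT16 between brains of 12-month-old (12 M) and 4-month-old (4 M) zebrafish, as listed ChIP-seq peaks. All peaks of both lists were used, 8755 at 12 M ZT16 and 55874 at 4 M ZT16, which together are 64629 of the 242100 peaks in the 6 lists of the series. A peak was counted as listed at the other age when it overlapped a peak of that list by at least 1 bp. Sites with exactly 1 peak in each list, called one-to-one sites here, numbered 8341, and at these the rank of the peak within its own list was compared.

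The study examined whether H3K9me3 in brain changes with age and time of day alongside transcription. SAT wild-type zebrafish were first kept for a week in days of 12 h light and 12 h dark, and ZT16 lies 16 h after lights on, in the dark phase. The 12 M ZT16 group and the 4 M ZT16 group had the same tissue, time and antibody (abcam ab8898) and differed in age, with 3 libraries each that the authors combined into 1 peak list for each group. The series has 18 H3K9me3 libraries and 1 library pulled down with a GFP antibody. The labels name a university core or a company as the place of sequencing, without saying which library went where, while the study's methods name only the core for the ChIP-seq. Whether age and place of sequencing went together was not tested. Neither list holds values per library or counts of reads. The methods give a single read number and no totals by library. The depth behind each list is therefore unknown, no spread between replicates can be given, and no difference between the ages was tested. An unlisted site is one where no peak was called, and it may still carry the mark.

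H3K9me3 is written by methyltransferases such as SUV39H and SETDB1 and is bound by HP1 proteins, which compact the chromatin. It covers much of the repeat-rich DNA around centromeres, near chromosome ends and at transposons, where transcription is low. It also occurs at single genes, and in mammals the PER complex of the circadian clock carries an H3K9 methyltransferase to its targets.

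The 12 M ZT16 peaks lay almost wholly inside the 4 M ZT16 set. Of the 12 M peaks, 8699 of 8755 (99.4%, Wilson 95% interval 99.2 to 99.5) overlapped a 4 M peak, and 56 did not. Of the 4 M peaks, 8521 of 55874 (15.3%, 15.0 to 15.6) overlapped a 12 M peak, and 47353 did not. These intervals and those that follow cover counting error over peaks only, since neighbouring peaks and the pooled fish are not independent draws. The peaks covered 1.66 Mb at 12 M and 6.10 Mb at 4 M. The median peak was 117 bp long at 12 M (50 to 1687 bp) and 70 bp at 4 M (48 to 3067 bp). Peaks of up to 75 bp made up 33.3% of the 12 M list and 59.8% of the 4 M list, and peaks over 500 bp made up 7.46% of the 12 M list and 2.36% of the 4 M list.

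Each peak carries a whole-number score from the authors' peak caller. It ran between 10 and 85 at 12 M, with a median of 17, and between 10 and 189 at 4 M, with a median of 75. The scale is not named in the lists and the score depends on depth, so it was used only as a percentile within its own list. At 12 M the score took 55 distinct values, and 8.48% of the peaks shared the most common one, so ties are frequent there and each tied peak was given the mean rank. The Spearman rho of score and length was -0.02 over the 8755 peaks at 12 M and 0.52 over the 55874 peaks at 4 M.

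Length set apart the 4 M peaks that were also listed at 12 M. These had a median length of 195 bp (quartiles 109 and 375), against 66 bp (56 and 78) for the 4 M peaks that were not listed. Only 115 of the 33399 4 M peaks of up to 75 bp (0.344%) were listed at 12 M. The share was 14.8% (14.1 to 15.5) for peaks of 76 to 100 bp, 48.0% (46.4 to 49.7) for 101 to 150 bp and 44.6% (42.5 to 46.8) for 151 to 200 bp. It was 59.5% (58.1 to 60.8) for 201 to 500 bp. Of the peaks over 500 bp, which span several nucleosomes, 1255 of 1319 (95.1%, 93.9 to 96.2) were listed. Nearly all broad 4 M peaks were thus listed at 12 M, and hardly any of the very short ones, which make up most of the 4 M list. No 12 M peak was under 50 bp, and at one-to-one sites the 12 M peak was shorter by a median of 46 bp. A 4 M peak of up to 75 bp thus left little room for a shorter 12 M peak. What this lower limit on length contributed to the shares was not tested.

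Read the other way, length made little difference. Between 98.1% and 100% of the 12 M peaks in each of the 8 length classes were listed at 4 M. The 12 M list does hold short peaks, 2912 of up to 75 bp, but these mostly lay within longer 4 M peaks.

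**Figure D1:**
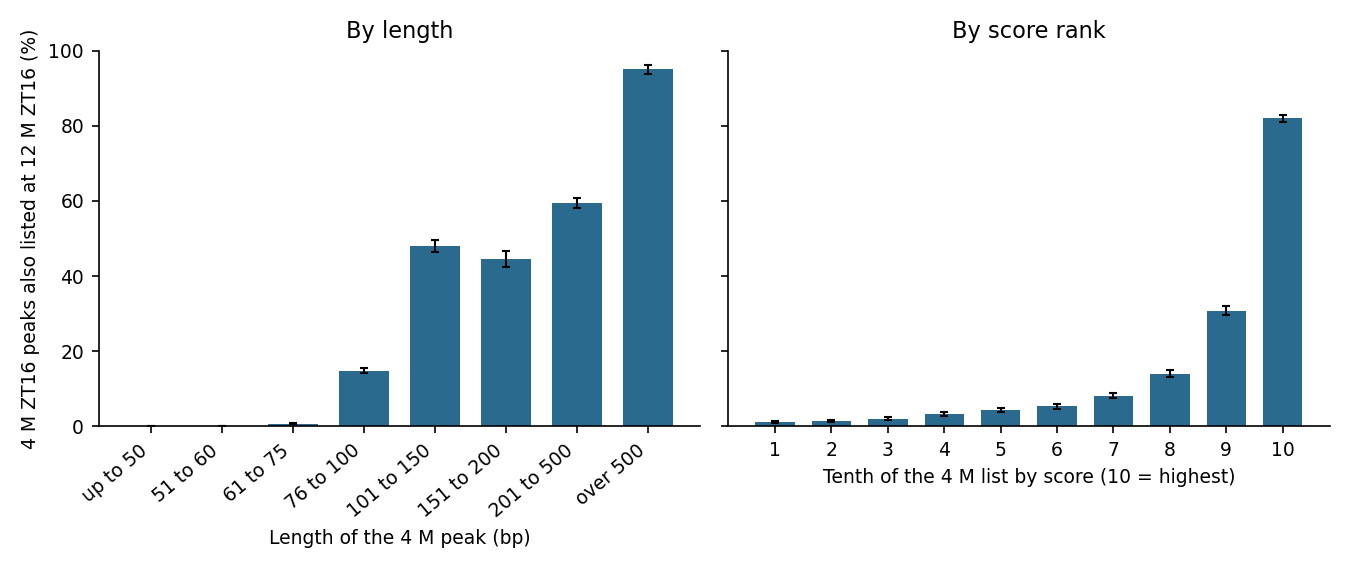
Percent of 4 M ZT16 peaks that overlap a 12 M ZT16 peak, by the length of the 4 M peak (left) and by its decile of score within the 4 M list (right), with Wilson 95% intervals. The share is 0.0212% for peaks of up to 50 bp and 95.1% for those over 500 bp, and 1.15% in the lowest score decile and 82.0% in the highest.

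Rank in the 4 M list set them apart as well. The share listed at 12 M was 1.15% (0.907 to 1.46) in the lowest decile of 4 M score, 4.42% in the fifth decile, 8.21% in the seventh, 30.8% in the ninth and 82.0% (81.0 to 83.0) in the highest. Of the top 1% of 4 M peaks, 549 of 554 were listed at 12 M. The 5 that were not were between 93 and 354 bp long. The median percentile was 91.2 for listed and 43.0 for unlisted 4 M peaks.

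Length and rank each went with listing within classes of the other, with 1 limit. In the lowest quintile of score the share differed little from 76 bp upward, between 2.70% and 5.38% in each length class. Among 4 M peaks over 500 bp, 99.4% of those in the highest quintile of score were listed (1210 of 1217), against 2.70% of those in the lowest (1 of 37). For 201 to 500 bp the shares were 95.4% in the highest quintile and 5.38% in the lowest, and for 101 to 150 bp they were 75.5% and 3.68%. Few short peaks of high rank were listed, 3.47% of the highest-quintile peaks of 61 to 75 bp (49 of 1412). At 76 to 100 bp the share in that quintile was 24.3% (891 of 3662). The lower limit on 12 M length bears on these short classes as well. The 64 broad 4 M peaks that were missing at 12 M had a median percentile of 18.2. The longest of them was also the longest peak of the 4 M list, chr4:39708247-39711313 (GRCz10, 3067 bp), which stood at percentile 1.69. It was listed at 4 M ZT4 and in both 20 M lists.

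**Figure D2:**
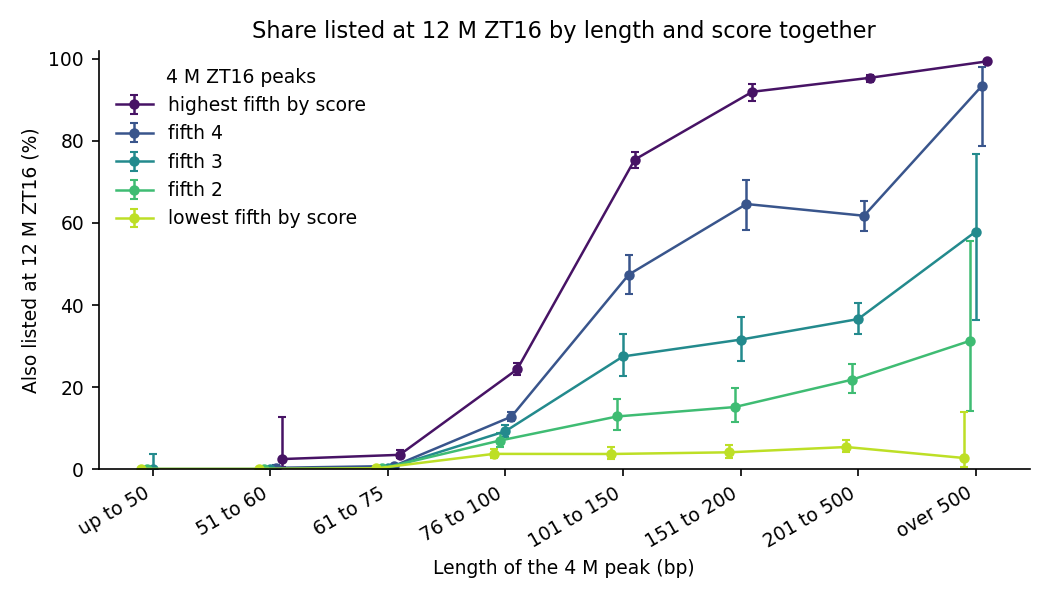
Percent of 4 M ZT16 peaks listed at 12 M ZT16, by length of the 4 M peak and by quintile of score within the 4 M list, with Wilson 95% intervals and classes of fewer than 10 peaks left out. In the highest quintile the share is 3.47% at 61 to 75 bp and 99.4% over 500 bp, and in the lowest it stays at or under 5.38% in every length class.

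The comparison was repeated at equal list size. With only the top 8755 peaks of the 4 M list by score (106 to 189), 67.7% of the 12 M peaks overlapped one of them and 65.8% of these 4 M peaks (5761) overlapped a 12 M peak. The 5761 had a median length of 236 bp, against 83 bp for the 2994 top 4 M peaks that were not listed at 12 M, and only 79 of those 2994 were over 200 bp. Another 2772 of the 12 M peaks (31.7%) overlapped a lower-scoring 4 M peak, whose median percentile was 68.8 and median length 144 bp. At equal list size, short high-scoring 4 M peaks were thus those most often missing at 12 M.

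Position along the genome went with the same features. On the 25 numbered chromosomes the share of 4 M peaks listed at 12 M was 14.6% (14.3 to 14.9). It was highest on chromosome 18 (19.2%, 17.7 to 20.9), followed by chromosome 12 (18.3%) and chromosome 16 (17.0%). It was lowest on chromosome 4 (10.4%, 9.31 to 11.7) and chromosome 14 (11.1%, 9.93 to 12.5). At equal list size chromosome 4 was no longer lower, with 175 of 253 peaks (69.2%) listed there against 65.8% over all of these 4 M peaks. With 253 peaks this difference is within counting error. Chromosome 18 stayed above at 73.6%. To set the shares by chromosome beside length and rank, the share was also computed for the mix of length classes and score deciles that each chromosome had, using the share of each such class over all 4 M peaks. That gave 18.6% for chromosome 18, and the observed count was 1.04 times the one computed in this way on chromosome 18 and likewise on chromosome 4. Chromosome 4 carries a long heterochromatic arm, and beyond 25 Mb 8.98% of its 4 M peaks (158 of 1760) were listed at 12 M, against 13.5% (112 of 828) up to 25 Mb. The peaks beyond 25 Mb had a median 4 M percentile of 29.9, and their mix of lengths and ranks gave 9.23%.

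Peaks on unplaced scaffolds stood out from those on chromosomes. At 12 M 607 of 1679 4 M scaffold peaks (36.2%, 33.9 to 38.5) were listed. These 4 M peaks were longer, with a median of 122 bp against 69 bp on the numbered chromosomes, and their mix of lengths and ranks gave 44.5%, which is above what was observed.

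The share was highest a few megabases in from the chromosome ends. It was 19.6% (17.6 to 21.7) within 1 Mb of an end, 22.5% at 1 to 2 Mb, 23.8% (22.9 to 24.8) at 2 to 5 Mb and 18.3% at 5 to 10 Mb. It was 10.9% at 10 to 20 Mb and 9.07% (8.57 to 9.61) at 20 Mb or more. On 25 of 25 chromosomes the share was higher within 10 Mb of an end than beyond, by the least on chromosome 8 (16.6% and 10.8%) and by the most on chromosome 16 (27.5% and 9.30%). Longer 4 M peaks were more common there. Of the 4 M peaks 33.2% were over 100 bp at 2 to 5 Mb, against 13.1% at 20 Mb or more. The observed counts were 0.984 to 1.04 times those that the mix of lengths and ranks gave in the 6 classes of distance. Within peaks of 76 to 150 bp the share was 25.8% at 2 to 5 Mb and 22.2% at 20 Mb or more, and within peaks of 151 to 500 bp it was 62.8% and 36.8%. The mix of lengths and ranks gave 25.7% and 21.7% for the shorter class, and 59.9% and 37.8% for the longer. In the longer class the median 4 M percentile was 75.3 at 2 to 5 Mb and 36.5 at 20 Mb or more.

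**Figure D3:**
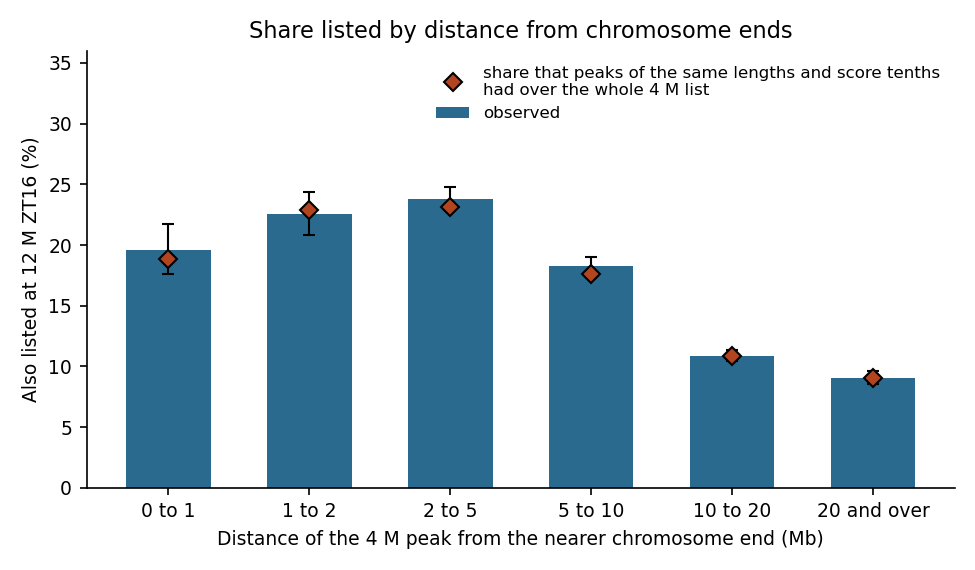
Percent of 4 M ZT16 peaks listed at 12 M ZT16 by distance from the nearer end of the chromosome, with Wilson 95% intervals (bars), and the percent that peaks of the same length classes and score deciles had over the whole 4 M list (diamonds). The bar reaches 23.8% at 2 to 5 Mb and 9.07% at 20 Mb or more, and the diamonds stand at 23.1% and 9.03%.

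In windows of 1 Mb, the share varied widely. Over the 1316 windows on numbered chromosomes that held at least 20 4 M peaks, the median share listed at 12 M was 10.7% (quartiles 6.52 and 18.8), and it ran between 0% and 57.4%. In 54 windows no 4 M peak was listed, and in 27 the share was above 40%. Across windows the share went with the percent of 4 M peaks over 100 bp (Spearman rho 0.76), a description over windows that share both lists. The 131 windows with the highest shares lay at a median of 4.29 Mb from a chromosome end, 116 of them within 10 Mb. The 131 with the lowest lay at a median of 17.5 Mb, 13 of them within 10 Mb.

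The window with the most 12 M peaks was chr18:47000001-48000000, with 41 at 12 M and 78 at 4 M, of which 39 were listed at 12 M. Next came windows with 34 12 M peaks each on chromosome 7, at 70000001-71000000, and chromosome 9, at 49000001-50000000. The highest share was in chr8:5000001-6000000, where 31 of 54 4 M peaks (57.4%, 44.2 to 69.7) were listed and 61.1% of them were over 100 bp. It was followed by chr25:5000001-6000000, with 33 of 59 (55.9%). At the other extreme, no 4 M peak was listed at 12 M of 52 in chr21:40000001-41000000 (upper limit of the interval 6.88%), of 47 in chr9:46000001-47000000 or of 46 in chr15:20000001-21000000. In these 3 windows between 69.6% and 78.7% of the 4 M peaks were 75 bp or shorter. The chromosome 9 windows with the most and with no listed peaks lie within a few megabases of each other, at 7.35 and 10.4 Mb from the chromosome end.

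Clustered 4 M peaks were listed somewhat more often than lone ones. Peaks were joined into a cluster when less than 5 kb apart. The share listed at 12 M was 13.6% for the 32062 lone peaks, 16.6% in pairs, 18.9% in clusters of 3 or 4, and 22.2% (19.8 to 24.8) in clusters of 5 to 9. By distance to the nearest 4 M peak, the share was 23.8% (22.6 to 25.1) under 500 bp and 11.5% at 20 to 50 kb. Peaks alone on their sequence went against this, with 63 of 217 (29.0%, 23.4 to 35.4) listed, and these were longer, with a median of 120 bp. Their mix of lengths and ranks gave 48.7%, which is above what was observed. Peaks over 100 bp made up 19.0% of the lone peaks and 34.9% of those in clusters of 5 to 9. The mix of lengths and ranks gave 13.7% for lone peaks and 20.5% for clusters of 5 to 9. The 7 largest clusters, of 10 or more peaks, were an exception, since none of their 135 peaks was listed at 12 M (upper limit of the interval 2.77%). These peaks were long, with a median of 200 bp, but ranked very low at 4 M, with a median percentile of 0.879. Their mix of lengths and ranks gave 2.19%, which lies within that interval. With peaks joined at 1 kb, none of the 34 peaks in clusters of 10 or more was listed. The exception depends on the join distance, since with peaks joined at 10 kb, 110 of the 529 peaks in such clusters (20.8%) were listed. For those 529 the mix gave 21.2%.

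Clusters were seldom listed whole. Of the 10102 clusters of 2 or more 4 M peaks, 7030 had no peak listed at 12 M, 2170 had exactly 1, and 528 had every peak listed. Where exactly 1 was listed, it was the longest 4 M peak of its cluster in 1953 of these clusters and the highest-scoring in 1849 (85.2%).

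At sites listed at both ages, the 12 M peak was shorter and lay inside the 4 M peak. This held for position at 99.5% of the 8341 one-to-one sites and for length at 8327 of them. The median length was 114 bp at 12 M and 190 bp at 4 M, and the ratio of the lengths, 12 M over 4 M, had a median of 0.696 (quartiles 0.579 and 0.825). The 12 M peak was shorter by a median of 46 bp, with 21 bp fewer on the lower-coordinate side and 22 bp fewer on the other, so the centre moved by a median of 6 bp. Lengths at the same site went together (Spearman rho 0.89 over 8341 sites). For sites over 500 bp at 4 M, the median ratio was 0.89. At sites of 101 to 150 bp it was 0.63, where a 4 M peak of median 118 bp met a 12 M peak of median 75 bp. Since no 12 M peak was under 50 bp, the ratio at short sites has a lower bound.

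**Figure D4:**
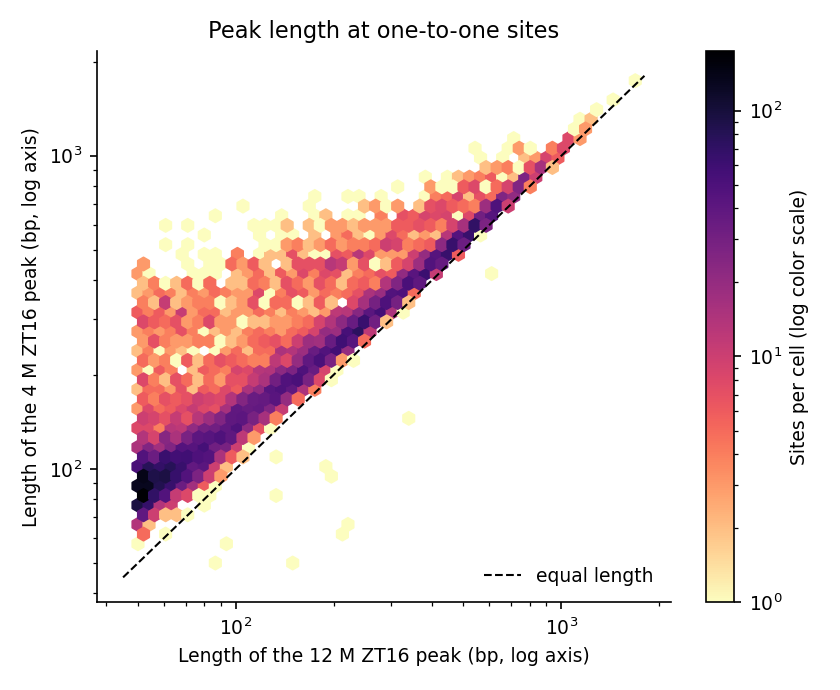
Length of the 12 M ZT16 peak (horizontal, log axis, bp) and of the 4 M ZT16 peak (vertical, log axis, bp) at the 8341 one-to-one sites, with the number of sites per cell in color and equal length dashed. Nearly all sites lie above the dashed line, since the 12 M peak was shorter at 8327 of them.

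Some broad 4 M peaks held several 12 M peaks. There were 178 4 M peaks, with a median length of 714 bp, that overlapped more than 1 12 M peak, 177 with 2 and 1 with 3. The reverse, a 12 M peak over 2 4 M peaks, occurred once. The longest 12 M peak, chr22:24528242-24529928 (1687 bp, percentile 69.6), matched a 4 M peak of 1737 bp at percentile 97.8. The next longest, chr3:59340072-59341488 (1417 bp, percentile 79.3), matched a 4 M peak of 1502 bp at percentile 96.6. Each of the 5 longest 12 M peaks matched a single 4 M peak, and none had a locus used here within 3 kb.

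The percentile within the list differed between the ages at the shared sites. The median percentile was 47.8 at 12 M (quartiles 24.4 and 74.7) and 90.8 at 4 M (78.9 and 96.0). The median difference, 12 M minus 4 M, was -33.4 percentile points (range -95.5 to 84.3), and the 12 M percentile was the higher at 1209 sites (14.5%). The sites are 95.3% of the 12 M list but come mainly from the top of the much longer 4 M list, which by itself lowers the difference. With percentiles taken among the 8341 sites in place of the whole lists, the median difference was -0.408 points and the 12 M percentile was the higher at 49.7% of sites.

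Sites kept their order between the ages only loosely. The Spearman rho of 12 M and 4 M percentiles was 0.22 over 8341 sites, a description over sites of the same libraries. Within classes of 4 M length it was 0.47 at 61 to 75 bp and 0.45 at 76 to 100 bp. It was between 0.25 and 0.30 in the classes from 101 to 500 bp, and -0.07 over 500 bp. Over all sites the relation was not a straight one. Sites in the lowest quintile of 12 M percentile (scores of 10 to 13) had a median 4 M percentile of 80.6, those in the middle quintile 93.8, and those in the highest (scores of 23 to 67) 90.8. Sites of the middle quintile were the longest, with medians of 170 bp at 12 M and 268 bp at 4 M. In the highest quintile the medians were 77 bp at 12 M and 131 bp at 4 M.

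Length went with which sites ranked higher at 12 M. Among the sites, the difference of percentiles was a median of 61.5 points at 4 M lengths of 61 to 75 bp (109 sites) and 25.9 points at 76 to 100 bp. It was 0.216 points at 101 to 150 bp, -5.78 at 201 to 500 bp and -28.6 over 500 bp (1101 sites). The few very short 4 M peaks that were listed at 12 M ranked high there, with a median whole-list percentile of 92.4 at 12 M and 77.2 at 4 M for those of 61 to 75 bp. Peaks of that length became sites only where a 12 M peak was called, at 109 of 15974 (0.682%). What this selection contributed to their rank at 12 M was not tested. Broad sites held the middle of the 12 M list, at a median percentile of 55.9, and the top of the 4 M list, at 97.5. Over the sites, the Spearman rho of percentile and length was -0.03 at 12 M and 0.46 at 4 M.

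**Figure D5:**
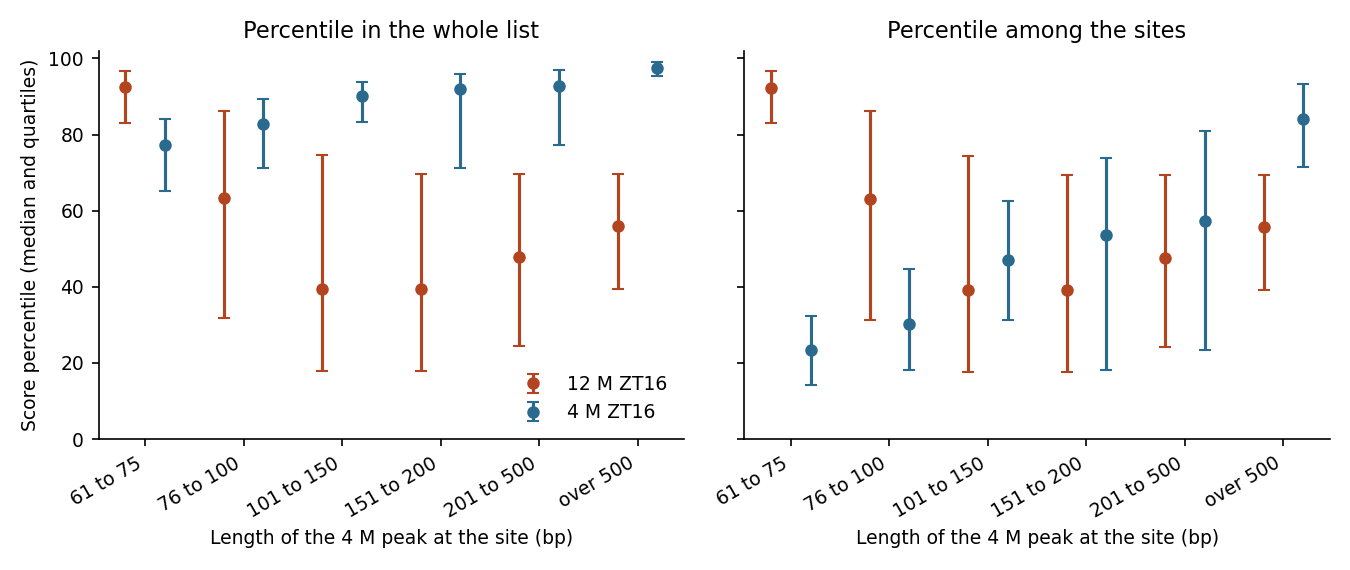
Median and quartiles of the score percentile at one-to-one sites for 12 M ZT16 (left of each pair) and 4 M ZT16 (right), by length of the 4 M peak, with percentiles in the whole list (left panel) and among the 8341 sites (right panel), for length classes of at least 100 sites. Among the sites the 12 M median stands at 92.3 and the 4 M median at 23.4 for 61 to 75 bp, and at 55.6 and 84.0 over 500 bp.

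Chromosomes and clusters differed little in this measure. By chromosome, the median difference of percentiles among the sites ran between -4.17 points on chromosome 22 and 5.15 points on chromosome 14. It was 0.785 points for lone 4 M peaks and -1.94 for clustered ones, -3.23 within 10 Mb of a chromosome end and 5.26 beyond, and -15.4 on unplaced scaffolds, where the 4 M peaks were longer (median 305 bp at the sites).

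Of the 5 sites with the highest mean percentile over both lists, only the first had a locus used here within 3 kb. The site with the highest mean percentile, chr7:29406078-29406141 at 12 M (64 bp, percentile 99.6) and chr7:29406058-29406159 at 4 M (102 bp, percentile 99.9), lies inside rorab, a ROR-family nuclear receptor of the kind that activates clock genes. The next, chr7:2750338-2750409 at 12 M, stood at percentile 99.9, against 99.5 for its 4 M peak. The largest positive difference was at chr11:44974675-44974735, with percentile 86.2 at 12 M and 1.97 at 4 M, a difference of 84.3 points. It was followed by chr25:36890500-36890720, at 88.8 for 12 M and 4.50 for 4 M, and chr4:41352601-41352795, at 83.1 and 0.879. Among the 5 largest differences, the peaks were within 4 bp of each other in length at 4 sites. The other, Un_KN150105v1:30767-31099 (percentile 74.7 at 12 M and 1.12 at 4 M), was 333 bp long at 12 M and 150 bp at 4 M. The most negative was at chr15:46862750-46862837, percentile 2.36 at 12 M and 97.8 at 4 M, where the 12 M peak was 88 bp and the 4 M peak 131 bp. Its difference was -95.5 points, as was that of chr18:7898557-7898620. The 12 M peaks at the 5 most negative sites all had the lowest score of the list, 10. None of these 10 sites at the extremes of the difference lay within 3 kb of a locus used here.

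Gene loci were taken from the positions of 1337 transcribed loci in the study's lists of diurnal and age-related expression, 358 with a gene name and 979 without. They are therefore not a sample of all genes. With 3 kb added on each side, 145 of the loci (10.8%) had a 12 M peak and 591 (44.2%) had a 4 M peak. No locus had a 12 M peak without a 4 M peak, and 446 had a 4 M peak only. Of the 1290 4 M peaks at the loci, 215 (16.7%) were listed at 12 M, against 15.3% of all 4 M peaks. Of 55 loci where exactly 1 of several 4 M peaks was listed, that peak was the longest at 47 and the highest-scoring at 39.

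Core clock genes drive the daily feedback loop in which CLOCK and BMAL activate the per, cry, nr1d and ror genes. Of 35 in the list, 16 had a locus, and 4 of these 16 (interval 10.2% to 49.5%) had a 12 M peak, against 12 (50.5% to 89.8%) with a 4 M peak. Over the 358 named loci the shares were 13.1% with a 12 M peak and 60.1% with a 4 M peak. Both lie within those intervals, so the counts are not a result about clock genes. The clock loci are long, with a median of 37.1 kb, against 17.3 kb over the named loci and 2.24 kb over all loci. Of their 41 4 M peaks, 6 were listed at 12 M (14.6%), a share near that of all 4 M peaks. In rorab, 1 of 10 4 M peaks was listed, the site above, and the other 9 ranked between 7.52 and 82.7 at 4 M. For hlfa, a PAR bZIP factor that binds D-box elements, 3 of 4 were listed. They include chr3:11643263-11643639 (377 bp, percentile 39.5) at 12 M, inside a 4 M peak of 477 bp at percentile 99.1, and the unlisted one was the shortest at 70 bp. For nr1d2a, a REV-ERB repressor, the 12 M peak was chr16:49881785-49881854 (70 bp, percentile 47.8), and 3 other 4 M peaks of 58 to 94 bp were not listed. For per2, a core repressor of the loop, the 12 M peak chr2:48452990-48453044 (55 bp, percentile 63.3) lay outside the locus on its lower-coordinate side, within a 4 M peak of 106 bp at percentile 80.6. Its other 4 M peaks, of 79 and 56 bp inside the locus, were not listed.

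The remaining clock loci had no 12 M peak. The 8 with 4 M peaks only were cry1aa, cry2, clocka, arntl2, per3, nr1d2b, nfil3-6 and tefb. The longest 4 M peak was between 68 and 92 bp at 7 of these loci and 237 bp at tefb, and their highest 4 M percentile was between 31.4 (nfil3-6) and 82.0 (clocka). The loci of bhlhe40, bhlhe41, nr1d1 and per1b had a peak at neither age.

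The related nuclear receptor loci nr1d4b and nr1d4a, outside the list, had 12 M peaks. In nr1d4b, 4 of 11 4 M peaks were listed, among them its 3 longest. They include chr11:2190151-2190819 at 12 M (669 bp, percentile 63.3), inside a 4 M peak of 740 bp at percentile 99.3, and chr11:2141853-2142360 at 12 M (508 bp), inside one of 541 bp. In nr1d4a, 1 of 13 was listed, chr23:35803532-35803590 (59 bp, percentile 93.6) at 12 M, within the highest-ranked 4 M peak of the locus (percentile 97.5).

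Muscle contraction genes, which encode the sarcomere and its calcium handling, had a 12 M peak at 4 of 28 loci (14.3%, 5.70 to 31.5) and a 4 M peak at 16 (57.1%, 39.1 to 73.5). These shares are near those of the 358 named loci, 13.1% with a 12 M peak and 60.1% with a 4 M peak. Of their 26 4 M peaks, 6 were listed at 12 M (23.1%), against 15.3% of all 4 M peaks. With 26 peaks this difference is within counting error, and 3 of the 6 were at the tnnc2 locus. At tnnc2, which encodes a fast-muscle troponin C, 3 of 4 4 M peaks were listed. The 12 M peaks there were 54, 55 and 61 bp long at percentiles 31.7, 2.36 and 90.8, within 4 M peaks of 100, 101 and 100 bp at percentiles 87.1, 88.1 and 91.5. At tnnt3b, a troponin T, the only 4 M peak (115 bp, percentile 95.6) was listed, as chr7:39171749-39171830 at 12 M. At tnni2a.1, a troponin I, the 12 M peak of 106 bp stood at percentile 24.4 within a 4 M peak of 249 bp at percentile 96.6. The 12 M peaks of tnnt3b and tnni2a.1 lay outside the locus on its lower-coordinate side. At mybpc1, a myosin-binding protein, the 12 M peak of 88 bp stood at percentile 2.36 within a 4 M peak of 122 bp at percentile 21.0. The other 12 muscle loci with a 4 M peak, among them ckma, ckmb, myhz2 and pvalb1, had no 12 M peak.

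Glycolytic enzyme loci had no 12 M peak. None of 7 did (upper limit of the interval 35.4%), against 6 of 7 at 4 M, with 9 4 M peaks in all. The share of named loci with a 12 M peak, 13.1%, lies within that interval, so the absence is not a result about these genes. The 4 M peaks at aldoab, aldoca, gpib, pfkma, pfkmb and pkmb were at most 242 bp long and reached at most percentile 85.4. None of the 24 genes of H3K9 methylation and heterochromatin in the list had a locus here. Of the 17 loci of genes that the study discusses by name, per2 and c3a.1 had a 12 M peak (11.8%) and 10 had a 4 M peak (58.8%), against 13.1% and 60.1% of named loci. With no flank, none of the 17 had a 12 M peak (upper limit of the interval 18.4%), against 9.5% of named loci. That share lies within the interval, so this absence too is not a result about these genes. At c3a.1, a complement C3 gene, the 12 M peak chr1:55460295-55460450 (156 bp, percentile 47.8) lay within a 4 M peak of 202 bp at percentile 83.4. It was outside the locus on its lower-coordinate side. At slc4a1a, the anion exchanger of red blood cells, none of 3 4 M peaks was listed at 12 M, and the longest was 76 bp. At fbxo32, which encodes a ubiquitin ligase subunit of muscle atrophy, neither of its 4 M peaks was listed, and the longer was 56 bp.

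Among the other named loci, igfn1.1 had the most 12 M peaks. At this gene of the immunoglobulin and fibronectin domain family, flanks included, 8 of 14 4 M peaks were listed. The listed 4 M peaks chr6:46974216-46974446 and chr6:46975511-46975641 lay past its end. The 12 M peaks were between 56 and 430 bp long. Its top 12 M peak, chr6:46834578-46834665 (88 bp), stood at percentile 99.3, within a 4 M peak at percentile 93.0. The 6 unlisted 4 M peaks there were between 53 and 83 bp. At hs3st1l1, on an unplaced scaffold, 3 of 5 4 M peaks were listed, 1 of them as a pair of 12 M peaks, all in the flanks of the locus. At pecam1, an endothelial adhesion gene, the 12 M peak chr3:59489328-59489834 (507 bp, percentile 69.6) lay within a 4 M peak of 531 bp at percentile 99.6. At slc16a6a, a monocarboxylate transporter gene on a scaffold, both 4 M peaks were listed, and the longer was 692 bp at 12 M and 742 bp at 4 M. The peaks of pecam1 and slc16a6a lay outside the locus on its lower-coordinate side. At col1a2, a chain of type I collagen, 2 of 5 were listed, at percentiles 92.4 and 55.9 at 12 M. The listed 4 M peaks of col1a2 were 138 and 110 bp, and the unlisted were 66 to 70 bp. At tmem182a, the single 4 M peak of 82 bp (percentile 90.1) was listed as a 12 M peak of 58 bp at percentile 98.1.

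The 56 12 M peaks without a 4 M peak were mostly low in rank. They had a median percentile of 17.8 and a median length of 140 bp, 46 of them scored under 20, as did 66.8% of all 12 M peaks, and none had a 4 M peak within 1 kb. They lay within 5 Mb of a chromosome end in 34 of 56 cases (60.7%, 47.6 to 72.4), against 30.7% of all 12 M peaks. Both totals include peaks on unplaced scaffolds, which were given no end distance and make up 625 of all 12 M peaks. Of the exceptions in rank, the highest were at the start of chromosome 15. There chr15:6891-7081 had the highest score of the 12 M list (85) and chr15:7364-7459 the next (73), while the nearest 4 M peak lay 54991 bp from the first. Both were listed again at 20 M, at either time of day. They were not listed at 4 M ZT4 or at 12 M ZT4, where the whole list holds only 29 peaks. The third, chr20:18719013-18719203 (score 45), was listed at 4 M ZT4 and, at 20 M, at either time. Next came chr6:77178-77235 (percentile 97.2) and chr3:17287947-17288003 (90.8), which were in no other list. Of the 56, 19 were also found at 20 M ZT16, 9 at 4 M ZT4 and 29 nowhere else in the series.

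The 4 M peaks that were listed at 12 M ZT16 were more often in the other lists too. Of the 8521, 8259 (96.9%, 96.5 to 97.3) were in the 20 M ZT4 list of 19177 peaks, against 22.1% (21.7 to 22.5) of the 47353 unlisted ones, which is 10468 peaks. The list of the same age at ZT4 held only 29 peaks, and 27 of the 8521 and none of the 47353 overlapped it. The longer lists held nearly all 4 M ZT16 peaks of either kind. The 4 M ZT4 list held 8513 of the 8521 and 46899 of the 47353 unlisted ones, and the 20 M ZT16 list held 8517 and 46981. A list of the same size can be had from the 8755 highest-scoring peaks of 20 M ZT16. Its overlap with the 4 M ZT16 peaks differed from that of the 12 M list in the mix of lengths and ranks. The 12 M list held 55.0% of the 4 M peaks of 151 to 500 bp, against 40.5% for the 20 M ZT16 top list, 82.0% against 89.8% of the highest score decile, and 1.15% against 0.0524% of the lowest. For 4 M peaks over 500 bp the shares were 95.1% against 91.7%, and for those of up to 75 bp 0.344% against 0.698%. The top 8755 peaks of 20 M ZT4 differed again, with 70.9% of the highest score decile, 81.1% of the 4 M peaks over 500 bp and 4.72% of those up to 75 bp. The top 8755 of 4 M ZT4 held 91.1% over 500 bp and 1.81% up to 75 bp. By chromosome end and clustering the lists were closer. Within 10 Mb of an end and beyond, the shares were 20.6% and 10.2% for the 12 M list. They were 19.5% and 11.3% for the top of 20 M ZT16, and 19.4% and 11.5% for that of 4 M ZT4. For lone and clustered peaks they were 13.6% and 17.5%, 14.4% and 17.4%, and 14.5% and 17.3%, in the same order of lists. These lists share the 4 M ZT16 peaks they are set against, so the shares are given side by side with no test.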

How the data were processed

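The authors made each list from a triplicate of H3K9me3 ChIP-seq libraries of 50-bp single-end reads, mapped to GRCz10 with Bowtie2 and called with MACS2 (version 2.2.1 in the submitters' processing notes). The control library of the calls is not given in the sources used here. The deposited value of each peak is a whole-number score with no stated scale. It was only ranked within its list. The 6-column lists are printed counted from 1. Overlap was at least 1 bp, clusters joined peaks under 5 kb apart, loci had 3 kb flanks, windows were 1 Mb, and chromosome ends were taken from the last listed peak. Scripts ran in Python 3.11.15, with pandas 2.3.3 and numpy 2.4.6 for tables, scipy 1.17.1 for intervals and matplotlib 3.10.9 for figures. The overlap code found 1500 of 1500 overlaps planted among 5000 simulated intervals and was checked against bedtools 2.31.1. Of 358 named loci, 232 matched a symbol in the gene name table.

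Named genes were those of the lists with a locus and a 12 M peak within 3 kb, and up to 25 other named loci by highest 12 M percentile (the text describes some of these). Named regions were the 5 sites with the largest and 5 with the smallest percentile difference, the 5 with the highest mean, the 5 longest 12 M peaks, the 5 windows with most 12 M peaks, and the 3 with the highest and 3 with the lowest share. Loci with no 12 M peak, the peaks without a 4 M counterpart and the longest missing broad peak were named after their values were seen. The members and gene lists were chosen with earlier results of these data known.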

Additional observations from a re-analysis of the deposited data

How the results depend on the processing

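Each group has 1 pooled list, so leaving out a replicate was not possible. No paired analysis was possible because the lists carry no replicate numbers. Of 111 alternative values, 39 stayed within their interval or spread and 72 moved. All but the median percentile difference are percentages, which have no direction to reverse. That difference stayed negative in every setting. The share on chromosome 4 was below that of all 4 M peaks in the main setting, but not at equal list size. A higher share of 4 M peaks was listed within 10 Mb of chromosome ends than beyond in 8 of 8 settings, and in clusters than alone in 8 of 8. What depth, enrichment or the place of sequencing contributed was not tested.

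With a score of at least 20 in both lists, 99.6% of 12 M peaks (2896 of 2908) were listed at 4 M, and 5.22% of 4 M peaks were listed at 12 M, among them 0.282% of those up to 75 bp, 30.8% of those over 500 bp and 30.1% of the highest decile. With a score of at least 30, the values in the same order were 99.1% (441 of 445), 0.809%, 0.124%, 2.85% and 5.19%. Far more 12 M than 4 M peaks fall under these limits, which apply the same score to both lists although the score depends on depth. At equal list size they were 67.7%, 65.8%, 4.03%, 99.5% and 99.2%. The 4 M shares there are of the 8755 highest-scoring peaks only. Their highest decile is a smaller set (853 of 860 listed) than that of the whole 4 M list (4608 of 5617). With a reciprocal overlap of 50%, the 12 M share was 82.1% and the 4 M share 12.9%, with 77.6% over 500 bp and 72.3% in the highest decile. Counting peaks within 1 kb gave 17.1% of 4 M peaks, and 2.33% of those up to 75 bp. Merging within 1 kb gave 15.7% of 4 M regions, 52.7% of those over 500 bp, many of which are then joined short peaks, and 83.3% of the highest decile. On the numbered chromosomes the 4 M share was 14.6% and that of the highest decile 79.7%. Without chromosome 4, 96.7% of 4 M peaks over 500 bp and 83.2% of the highest decile were listed. The median percentile difference was -0.408 with percentiles among the sites and between -37.2 and -10.1 in the other settings. Loci with a 12 M peak were 5.09% with no flank and 17.7% with 10 kb, and loci with a 4 M peak 21.4% and 65.4%.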
